A study of Mus musculus with 12 samples.

Results

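The 8 genes described here encode enzymes of cholesterol synthesis and the transcription factor that drives them: Hmgcs1, Idi1, Fdps, Fdft1, Sqle, Lss, Cyp51 and Srebf2. They were taken by gene symbol, from a list proposed with earlier results of these data in view, and they are 8 of the 50686 genes counted in every library. Although the set is labelled synthesis and uptake, none of the 8 is an uptake receptor, and genes of uptake and transport were read with the wider pathway. RNA-seq of polyadenylated RNA was made from sorted mouse splenic B cells in 12 libraries. The YC group (n = 3) is the normal control, of genotype YFPstopF/+ Cg1Cre/+, sorted as B220+YFP+ cells. BIC (n = 3) is a model of the activated B cell-like type of diffuse large B cell lymphoma with genotype Blimp1F/F IKK2castopF/stopF Cg1Cre/+, sorted as B220+GFP+ cells. pBIC (n = 6) carries p53F/F in addition and was sorted with the same gate. Every group carries Cg1Cre/+, a Cre recombinase driven from the IgG1 constant-region locus, so floxed alleles recombine in B cells that have transcribed this locus and not in all B cells. The labels give neither age nor sex, and they do not say that the libraries of a group come from separate mice, so the p-values measure only the spread between these libraries.

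Animal cells make cholesterol from acetyl-CoA. Hmgcs1 acts on the way to mevalonate, Idi1 and Fdps build farnesyl diphosphate, and Fdft1, Sqle, Lss and Cyp51 turn it into squalene, its epoxide, lanosterol and the first demethylated sterol. Farnesyl diphosphate also feeds protein prenylation, dolichol and coenzyme Q. SREBP-2, the product of Srebf2, sits in the endoplasmic reticulum with its escort Scap. When membrane cholesterol is low it is carried to the Golgi, cut, and turns on these genes and its own gene, while Insig1 and Insig2 hold it back when sterols are plentiful. Dividing lymphocytes need cholesterol for new membrane.

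The libraries held 33127283 to 47067627 counts. Values are given in CPM (counts scaled to library size, with TMM factors), and all 8 genes passed the filter on low counts, as did 17754 genes in all. In bulk RNA, fewer cells of a type and less RNA per cell cannot be told apart. The B cell label was read against 8 B cell markers, whose summed level was 8890 to 10490 CPM in YC, 9133 to 9715 CPM in BIC and 2542 to 7514 CPM in pBIC. Transcripts of 4 Y-linked genes were at 393 to 414 CPM in the YC libraries and at most 0.567 CPM in the BIC libraries, where Xist was at 1680 to 1828 CPM. The sex of the mice and the genotype therefore cannot be told apart between YC and BIC alone. The pBIC libraries were mixed: pBIC 2, 4 and 5 carried Xist, pBIC 3 and 6 carried the Y-linked transcripts, and pBIC 1 had little of either. The names of the deposited files also mark 2 kinds of pBIC library, which the sample titles do not give, so pBIC was treated as 1 group and its means and spread run over both kinds.

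SREBP-2 is known to act at sterol response elements near the start of its target genes, usually beside sites for NF-Y and Sp1. Promoters of 5 of the 8 genes were in the RefSeq table on build GRCm38.p6, which has no entry used here for Fdps, Fdft1 and Sqle. The printed windows are the 140 bases before the most upstream annotated start, and are shown for Hmgcs1, Lss, Cyp51 and Srebf2, with Insig1, an SREBP target outside the 8 genes, for comparison. Each is 5′ to 3′ on the gene's own strand: chr13:119690211-119690350 (+) for Hmgcs1, chr10:76531448-76531587 (+) for Lss, chr5:4104747-4104886 (-) for Cyp51, chr15:82147041-82147180 (+) for Srebf2 and chr5:28071223-28071362 (+) for Insig1. Capitals mark a match on either strand to TCACNCCAC (a loose sterol response element), CCAAT (the NF-Y box), GGGCGG (an Sp1 box) or CACGTG (an E-box).
Hmgcs1: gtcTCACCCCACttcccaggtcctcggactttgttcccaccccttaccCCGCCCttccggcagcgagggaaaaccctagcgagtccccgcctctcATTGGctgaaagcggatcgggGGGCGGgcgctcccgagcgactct
Lss: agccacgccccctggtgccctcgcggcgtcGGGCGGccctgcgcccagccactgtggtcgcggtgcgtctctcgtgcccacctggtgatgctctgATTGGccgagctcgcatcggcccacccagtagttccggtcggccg
Cyp51: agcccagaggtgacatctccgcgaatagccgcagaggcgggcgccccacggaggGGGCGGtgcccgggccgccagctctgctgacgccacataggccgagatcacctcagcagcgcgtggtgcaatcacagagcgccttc
Srebf2: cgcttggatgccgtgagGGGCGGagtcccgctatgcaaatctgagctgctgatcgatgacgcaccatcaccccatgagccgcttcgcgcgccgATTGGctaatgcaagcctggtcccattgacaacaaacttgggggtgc
Insig1: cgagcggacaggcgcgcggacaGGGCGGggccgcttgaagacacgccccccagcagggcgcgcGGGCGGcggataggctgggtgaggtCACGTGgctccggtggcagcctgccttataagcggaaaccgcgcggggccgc
The motif search itself used 300 bases, 250 before and 50 after each RefSeq start, on both strands. The strict form of the sterol response element, which contains the loose one, was in 0 of the 5 promoters and in 0.0913% of 32851 promoters. TCACNCCAC was in the Hmgcs1 promoter only, with its first base 137 bases before the start, and in 1.24% of all promoters. CCAAT was in 5 of 5 against 37.4% of all promoters, GGGCGG in 5 of 5 against 35.7%, and CACGTG in 0 of 5 against 7.15%. A match is a description of the letters, and a missing match says only that they are not in the window.

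Per base of exon, Srebf2 was the most abundant of the 8 genes in every group. In YC its mean level was 97.7 RPKM (CPM per kilobase of exon), followed by Hmgcs1 at 38.1 RPKM and Cyp51 at 27.4 RPKM. Sqle at 10.95 ± 1.98 RPKM (SD, n = 3) and Fdft1 at 10.89 ± 2.504 RPKM lay within each other's spread, and Idi1 at 7.55 RPKM, Lss at 3.00 RPKM and Fdps at 0.961 RPKM were lowest. In BIC, Sqle at 1.63 ± 0.721 RPKM and Lss at 1.70 ± 0.0684 RPKM lay within each other's spread. Fdps is understated on this scale: 85.9% of its 1308 coding bases also lie in exons of the overlapping gene Gm43738, and reads that fall on more than 1 gene were not counted. The rank of Lss depends on the exon length used, 10787 bases for 2223 coding bases, against 2860 to 5546 bases for the other genes. In CPM its YC mean was 32.4, beside Fdft1 at 31.2 and above Idi1 at 26.5.

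Hmgcs1 (chr13:119690462-119708086), which makes HMG-CoA, was at 120.5, 120.5 and 128.2 CPM in YC. BIC libraries held 36.4, 30.3 and 41.9 CPM, and the 6 pBIC libraries ran from 21.2 through a median of 61.2 to 90.6 CPM. Each tumour library was below each YC library, and the pBIC range enclosed the BIC range. Idi1 (chr13:8885501-8892451), the isopentenyl diphosphate isomerase, was at 24.8, 26.2 and 28.3 CPM in YC and at 3.73, 5.23 and 6.19 CPM in BIC. In pBIC it lay between 9.11 and 21.8 CPM with a median of 19.7 CPM. The 3 groups did not overlap for Idi1, with pBIC in the middle. Fdps (chr3:89093588-89101959), the farnesyl diphosphate synthase, was at 3.63, 4.41 and 4.09 CPM in YC and at 0.915, 1.09 and 2.26 CPM in BIC. pBIC ran from 1.02 through 2.66 to 3.05 CPM, below all YC libraries, and overlapped the BIC range. Some 21.4% of 100-base stretches of Fdps, 21.9% of those of Idi1 and 18.35% of those of Fdft1 occur in other annotated genes. The share was 8.22% for Hmgcs1 and at most 1.51% for the rest. A read on such a stretch can match more than 1 gene, and how many reads were lost in this way was not measured.

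Fdft1 (chr14:63145153-63177793), squalene synthase and the first step committed to sterols, was at 24.5, 30.2 and 38.7 CPM in YC and 17.2, 16.0 and 13.9 CPM in BIC. In pBIC 2 libraries, pBIC 2 at 41.2 CPM and pBIC 5 at 45.5 CPM, were above every YC library, while the other 4 were between 10.5 and 19.9 CPM, below every YC library. Sqle (chr15:59315077-59331192), the squalene epoxidase, was at 52.2, 56.8 and 73.1 CPM in YC and 10.1, 4.63 and 12.4 CPM in BIC. Its pBIC levels were 29.5, 50.1, 165.3, 44.1, 39.3 and 21.0 CPM, so every pBIC library was above every BIC library and pBIC 3 alone was above YC. Lss (chr10:76531588-76557138), which closes the sterol rings, was at 28.9, 34.6 and 33.7 CPM in YC and 17.7, 18.3 and 19.2 CPM in BIC. Its pBIC levels, from 11.3 through 23.7 to 35.8 CPM, reached below all BIC libraries and above all YC libraries. Cyp51 (chr5:4081145-4104746), the lanosterol demethylase, was at 127.7, 109.0 and 126.7 CPM in YC and 46.7, 46.8 and 77.3 CPM in BIC. pBIC ran from 51.6 through 80.4 to 100.7 CPM, below all YC libraries, and overlapped BIC through BIC 3.

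Srebf2 (chr15:82147266-82205376), the regulator, followed another order. It was at 465.7, 468.5 and 527.3 CPM in YC, 341.2, 353.0 and 465.0 CPM in BIC, and from 219.2 through 234 to 371.0 CPM in pBIC. Every pBIC library was below every YC library. BIC lay between the other 2 groups, with BIC 3 just under the lowest YC library and pBIC 5 inside the BIC range.

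**Figure D1:**
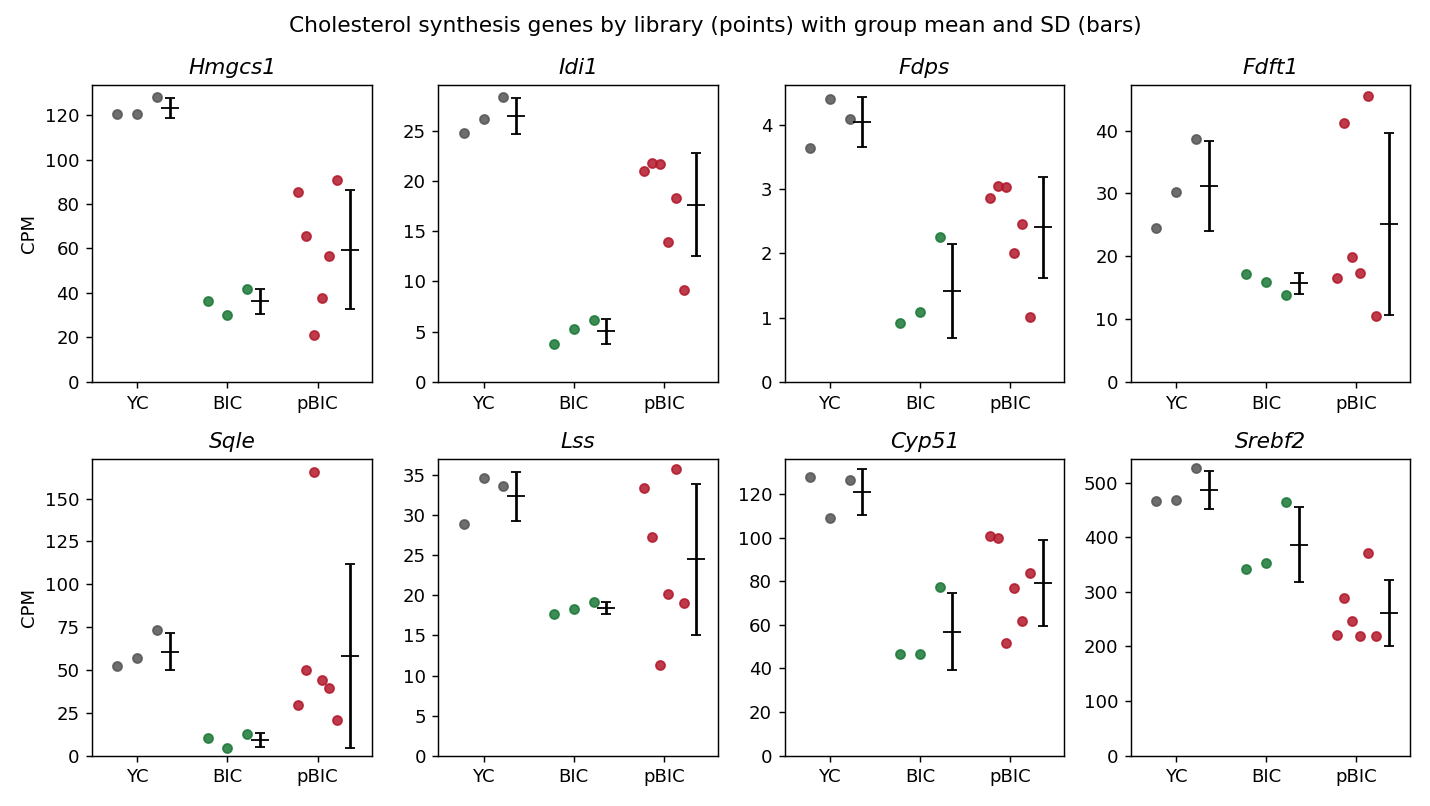
Level of each gene in CPM (vertical axes, linear, from 0) in YC (n = 3), BIC (n = 3) and pBIC (n = 6); points are libraries, in replicate order from left to right, and the bars beside them give the mean and SD. BIC libraries lie below YC libraries in all 8 panels, pBIC libraries are spread widely, and the single high point for Sqle is pBIC 3 at 165.3 CPM.

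In BIC tumours Hmgcs1, Idi1, Sqle and Cyp51, which act at separate steps from the making of HMG-CoA to the first demethylated sterol, fell against normal B cells. The other 4 genes had lower levels that did not pass the test. The size of the fall was largest for Sqle, with a log2 fold change of -2.74 ± 0.69 (SE; edgeR adjusted p = 0.0307), and for Idi1, with -2.39 ± 0.34 (edgeR adjusted p = 0.00275). Hmgcs1 changed by -1.77 ± 0.43 (edgeR adjusted p = 0.0261) and Cyp51 by -1.09 ± 0.28 (edgeR adjusted p = 0.0311) on the same scale. Fdps was at -1.51 ± 0.49 (edgeR adjusted p = 0.0780), Fdft1 at -0.99 ± 0.48 (0.216), Lss at -0.82 ± 0.35 (0.162) and Srebf2 at -0.33 ± 0.22 (0.380). Thus 4 of 8 genes fell and 0 rose, where 4.97% of all genes tested fell and 3.90% rose. At an unadjusted edgeR p under 0.05 the counts were 6 lower and 0 higher, and DESeq2 called 5 lower and 0 higher. In all 8 genes the BIC libraries lay wholly below the YC libraries, which held for 23.2% of all genes. The median log2 fold change of the 8 genes was -1.30, against 0.00701 over all genes.

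The 20 proliferation genes also fell in BIC, 20 of 20, with a median log2 fold change of -1.90. Their summed level was 2822 to 4068 CPM in YC and 745 to 1324 CPM in BIC. Summed macrophage markers were at 47.9 to 95.1 CPM in YC and 182 to 286 CPM in BIC, and neutrophil markers at 2.92 to 292.8 CPM and 65.4 to 1582 CPM. Of the 12 macrophage markers 11 had a positive log2 fold change in BIC, but only Cd68 passed as higher. Adgre1 fell (-2.85 ± 0.68, edgeR adjusted p = 0.0245). T cell markers were at 63.6 to 98.5 CPM in YC and 156 to 170 CPM in BIC, erythroid markers at 17.1 to 493 CPM and 88.0 to 266 CPM, and no marker of these lists was at 0 in every library of a group. Much of the T cell sum came from Lck, with means of 65.3 CPM in YC and 55.6 CPM in BIC, and Cd3g, with 2.61 and 61.4 CPM. Of the 10 T cell markers 9 had a positive value in BIC, and only Cd3g passed. The part of these markers in the fall of the synthesis genes was not tested. Idi1 passed the test in every alternative tried (edgeR adjusted p up to 0.0181 with 1 library left out). Hmgcs1 and Sqle lost the call when any single YC or BIC library was left out (edgeR adjusted p up to 0.109 and 0.124), and Cyp51 without any single YC library, BIC 1 or BIC 2 (up to 0.134). Sqle also did not pass without the filter on low counts, nor Cyp51 with the replicate number fitted as a block. With Xist as a covariate, Hmgcs1 at -1.44 (edgeR adjusted p = 0.165), Sqle at -2.16 (0.179) and Cyp51 at -1.08 (0.125) no longer passed, while Fdft1 at -2.17 (0.0296) did. Xist differs wholly between YC and BIC, so the fit takes its effect from differences within groups, mostly among pBIC libraries. That effect is then carried over to BIC against YC.

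**Figure D2:**
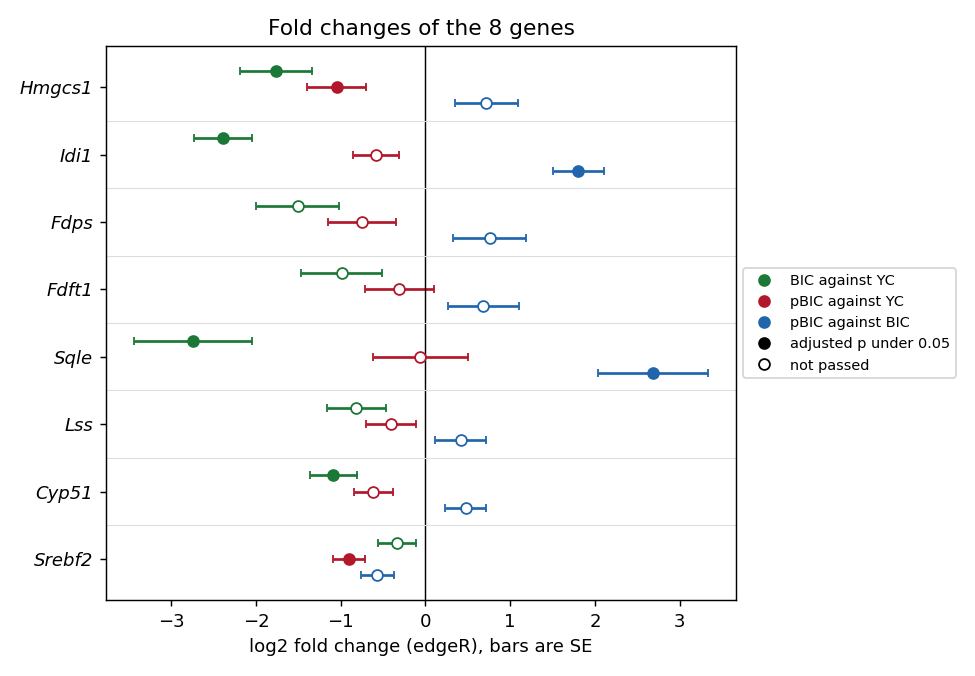
Log2 fold change of each gene from edgeR (horizontal axis, bars are SE) for the 3 comparisons of groups; filled points passed at an adjusted p under 0.05. All 8 BIC values are left of 0, from -2.74 for Sqle to -0.33 for Srebf2, and Srebf2 is the one gene with a negative value in pBIC against BIC.

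In pBIC tumours 7 of the 8 genes had a log2 fold change against YC nearer to 0 than in BIC, Srebf2 being the exception. Hmgcs1 and Srebf2 fell against YC, by a log2 fold change of -1.05 ± 0.35 (edgeR adjusted p = 0.0493) and -0.90 ± 0.19 (edgeR adjusted p = 0.00596). Cyp51 was at -0.61 ± 0.23 (edgeR adjusted p = 0.0762), Fdps at -0.75 ± 0.41 (0.204) and Idi1 at -0.58 ± 0.27 (0.143). Lss at -0.40 ± 0.30 (0.349), Fdft1 at -0.31 ± 0.40 (0.617) and Sqle at -0.06 ± 0.56 (0.950) did not pass either. Without pBIC 3, Sqle was at -0.72 ± 0.33 (edgeR adjusted p = 0.145). Thus 2 of 8 genes fell and 0 rose, against 10.2% and 11.8% of all genes, and DESeq2 called 3 lower and 0 higher, as did an unadjusted edgeR p under 0.05. Idi1, Hmgcs1, Fdps, Cyp51 and Srebf2 had all pBIC libraries below all YC libraries, 5 of 8 genes, against 13.2% of all genes. The median was -0.60, against 0.10 over all genes.

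Proliferation genes were at 2642 to 4983 CPM summed in pBIC, which encloses the YC range, and 1 of 20 rose against YC (Tyms). Of the 8 B cell markers 4 fell against YC (Pax5, Ptprc, Ebf1 and Cd22), and their part in the fall of Srebf2 and Hmgcs1 was not tested. The call for Srebf2 held without each library in turn (edgeR adjusted p up to 0.0371). That for Hmgcs1 was lost without YC 1, 2 or 3, BIC 1, 2 or 3, or pBIC 2, 4 or 5 (edgeR adjusted p up to 0.132), and with Xist as a covariate (-0.88, edgeR adjusted p = 0.170).

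Between the 2 tumour models, Idi1 and Sqle rose in pBIC. The log2 fold change of Idi1 was 1.81 ± 0.30 (edgeR adjusted p = 0.00283) and that of Sqle 2.68 ± 0.65 (edgeR adjusted p = 0.0145). For both, every pBIC library was above every BIC library, which held for 11.7% of all genes. The next values were those of Fdps at 0.76 ± 0.43 (edgeR adjusted p = 0.236), Hmgcs1 at 0.72 ± 0.37 (0.192), Fdft1 at 0.68 ± 0.42 (0.274), Cyp51 at 0.48 ± 0.24 (0.184) and Lss at 0.41 ± 0.30 (0.361). Srebf2 lay on the other side at -0.57 ± 0.19 (edgeR adjusted p = 0.0550; unadjusted, it was the 1 gene lower at p under 0.05), and it passed with DESeq2 (-0.59, adjusted p = 0.0301) and without pBIC 5 (-0.69, edgeR adjusted p = 0.0133). So 2 of 8 genes rose and 0 fell, against 10.9% and 8.78% of all genes, and the median was 0.70 against 0.09 over all genes. The comparisons share libraries, so a gene low in BIC enters both the fall against YC and the rise in pBIC.

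Proliferation genes rose in pBIC against BIC, 20 of 20, with a median log2 fold change of 2.03, and their part in the rise of Idi1 and Sqle was not tested. Summed macrophage markers in pBIC ran from 15.8 to 376 CPM, neutrophil markers from 6.05 to 84.9 CPM, T cell markers from 25.7 to 66.0 CPM and erythroid markers from 18.7 to 389 CPM. Idi1 kept its call without each library in turn (edgeR adjusted p up to 0.0217). Sqle lost it without BIC 1 or BIC 2 (up to 0.0734), and without pBIC 3 it was smaller but passed (2.02, edgeR adjusted p = 0.00580). Hmgcs1 passed only without pBIC 3 (0.89, edgeR adjusted p = 0.0388). With Xist as a covariate Fdft1 was at 1.13 in place of 0.68 and passed (edgeR adjusted p = 0.0428).

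**Figure D3:**
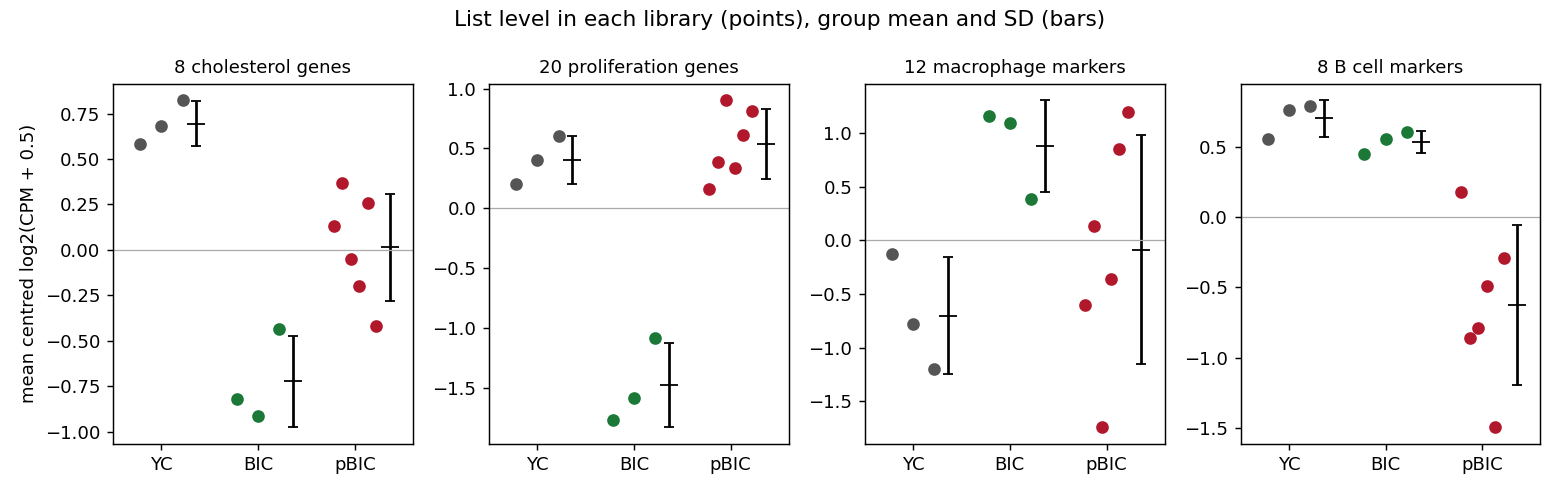
Mean of log2(CPM + 0.5), each gene centred on its mean over the 12 libraries, for the 8 genes, the proliferation genes, the macrophage markers and the B cell markers (vertical axes differ); points are libraries in replicate order, bars the group mean and SD. The 8 genes were at 0.58 to 0.82 in YC, -0.91 to -0.44 in BIC and -0.42 to 0.37 in pBIC, and proliferation genes were lowest in the 3 BIC libraries.

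The pBIC libraries differed from each other more than those of the other groups. The median SD of the 8 genes on the log2 scale was 0.54 in pBIC, 0.29 in BIC and 0.13 in YC, against 0.42, 0.25 and 0.20 over all genes tested. Within pBIC, the highest library exceeded the lowest 7.87-fold for Sqle, 4.36-fold for Fdft1 and 4.27-fold for Hmgcs1, but 1.69-fold for Srebf2 and 1.95-fold for Cyp51. The genes did not follow one order of tumours. pBIC 3 had the highest Sqle and also the lowest Hmgcs1, Lss and Cyp51 of the 6. pBIC 6 had the lowest Idi1, Fdps, Fdft1 and Sqle and the highest Hmgcs1. pBIC 2 and pBIC 5 had the highest Fdft1 and the highest Srebf2.

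**Figure D4:**
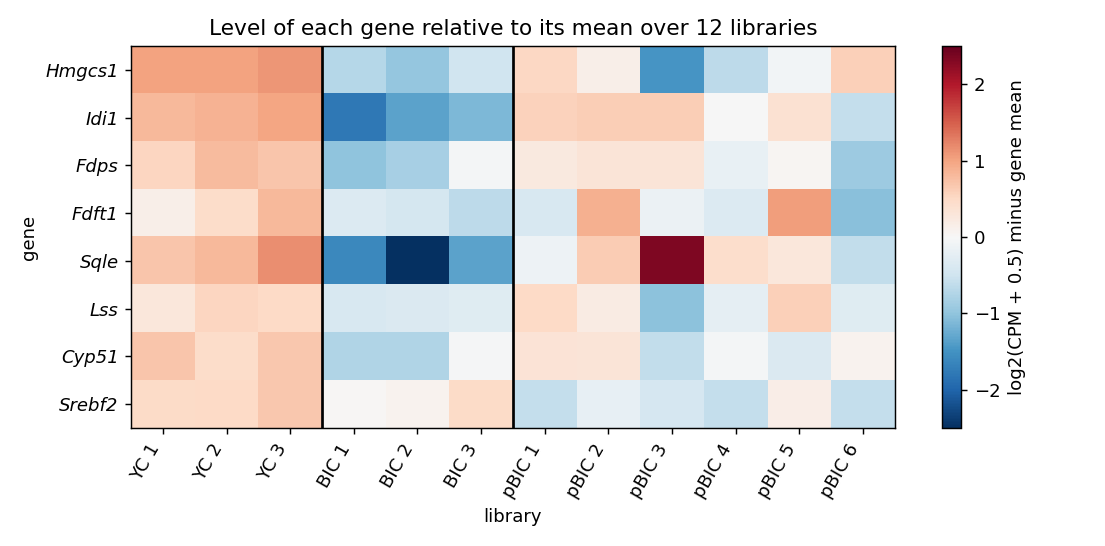
Each row is a gene and each column a library; colour gives log2(CPM + 0.5) minus the gene's mean over the 12 libraries, red above and blue below. The BIC columns are blue for most genes, and pBIC 3 holds both the darkest red (Sqle) and, among pBIC libraries, the darkest blue of Hmgcs1.

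The rest of the pathway was read from lists chosen by role, beginning with the other enzymes. Their counts stand beside the shares of all genes given above: 3.90% rose and 4.97% fell in BIC against YC, 11.8% and 10.2% in pBIC against YC, and 10.9% and 8.78% in pBIC against BIC. Counts at an unadjusted p or with DESeq2 stand beside the larger all-gene counts given with the 8 genes. Of the 5 other enzymes read between acetyl-CoA and the isoprenoids, Pmvk, the phosphomevalonate kinase, was the 1 that fell in BIC and the 1 that fell in pBIC, against YC. It was at 26.5 to 38.5 CPM in YC, 13.4 to 15.8 CPM in BIC and 7.99 to 20.9 CPM in pBIC, so both tumour groups were below YC. The log2 fold change was -1.20 ± 0.33 in BIC (edgeR adjusted p = 0.0440) and -1.27 ± 0.28 in pBIC (0.00711). Leaving out any single YC or BIC library, or pBIC 4, ended the BIC call (edgeR adjusted p up to 0.164). Acat2, which condenses acetyl-CoA, was at 23.1 to 29.2 CPM in YC and 7.17 to 17.3 CPM in BIC, ranges that did not overlap, with -1.07 ± 0.31 (edgeR adjusted p = 0.0501). None of the 5 passed between the models with edgeR or DESeq2 (1 was higher in pBIC at an unadjusted p under 0.05).

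Of the 8 other enzymes read after lanosterol, Msmo1, Hsd17b7 and Sc5d fell in BIC, and those 3 and Nsdhl fell in pBIC, against YC. Msmo1, the sterol methyl oxidase, was at 55.4, 56.6 and 53.8 CPM in YC and 15.9, 14.4 and 11.6 CPM in BIC, a log2 fold change of -1.98 ± 0.39 (edgeR adjusted p = 0.0110). Hsd17b7, a sterol ketoreductase, was at 16.6 to 26.2 CPM in YC and 6.47 to 8.98 CPM in BIC (-1.55 ± 0.32, edgeR adjusted p = 0.0124), and at 8.23 to 15.6 CPM in pBIC (-0.88 ± 0.26, 0.0295). Sc5d, a sterol desaturase, was at 55.1 to 62.8 CPM in YC, 18.6 to 26.0 CPM in BIC and 14.6 to 38.1 CPM in pBIC, with -1.37 ± 0.32 (edgeR adjusted p = 0.0223) and -1.11 ± 0.26 (0.0108). For these 3 genes both tumour groups lay below YC. Leaving out BIC 2 ended the BIC call of Msmo1, leaving out YC 2, YC 3, BIC 2 or BIC 3 that of Hsd17b7, and leaving out any single YC or BIC library that of Sc5d (edgeR adjusted p up to 0.0509, 0.0670 and 0.0866). With Xist as a covariate, Msmo1 no longer passed in BIC (-1.21, edgeR adjusted p = 0.126) or in pBIC (-0.69, 0.160). The pBIC calls were lost for Msmo1 without any single YC library, BIC 2 or pBIC 2, 3 or 5 (edgeR adjusted p up to 0.107), for Hsd17b7 and Nsdhl without either of YC 2 and YC 3 (up to 0.144 and 0.113), and for Sc5d without YC 2 (0.0523). Ebp, a sterol isomerase, went the other way and rose against YC in BIC (0.81 ± 0.21, edgeR adjusted p = 0.0358) and in pBIC (0.63 ± 0.19, 0.0327), calls lost without any single YC library, with BIC 1 or BIC 2 also ending the first (up to 0.123) and pBIC 2 or pBIC 5 the second (up to 0.126). Tm7sf2, a sterol reductase, was the 1 enzyme of this list that fell in pBIC against BIC (-1.09 ± 0.32, edgeR adjusted p = 0.0356), and it did not pass without YC 2, YC 3, any BIC library or pBIC 4 (up to 0.180), or with Xist as a covariate (-0.89, 0.109).

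Among the 6 genes that process SREBP or sense sterols, Insig1 moved with the enzymes. It was at 228.7, 138.2 and 98.5 CPM in YC and at 17.7, 14.0 and 18.8 CPM in BIC, and it fell by 3.20 ± 0.54 on the log2 scale (edgeR adjusted p = 0.00558). In pBIC it ran from 32.7 to 149.1 CPM, above all BIC libraries, and it rose against BIC (1.97 ± 0.48, edgeR adjusted p = 0.0149), with -1.23 ± 0.42 (0.0542) against YC. Without pBIC 1, its highest pBIC library, the value against YC was -1.65 (edgeR adjusted p = 0.00292). The rise against BIC was lost without BIC 1 or BIC 2 (edgeR adjusted p up to 0.0765). With Xist as a covariate the BIC fall was -2.48 (0.0547). Insig2, its homologue, was at 17.7 to 23.1 CPM in YC, 30.3 to 35.0 CPM in BIC and 9.88 to 14.2 CPM in pBIC, 3 ranges that did not overlap. It fell in pBIC against YC (-0.83 ± 0.17, edgeR adjusted p = 0.00543) and against BIC (-1.46 ± 0.17, 0.000730), and in BIC it was at 0.63 ± 0.20 (0.0756). Scap rose in pBIC against YC (1.04 ± 0.25, edgeR adjusted p = 0.0113; 0.0602 without YC 2), and was at 0.30 ± 0.27 (0.533) in BIC. Srebf1, which encodes the SREBP-1 forms that favour fatty acid genes, fell in pBIC against YC by 0.38 ± 0.11 (edgeR adjusted p = 0.0298), a call lost without any single YC library, BIC 2, BIC 3 or pBIC 2 (up to 0.114).

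Genes of uptake and intracellular transport moved both ways. Of 8 tested genes of 9, Stard4, a sterol carrier, fell in BIC against YC, while the lysosomal genes Npc1, Npc2 and Lipa rose. Stard4 was at 60.7 to 73.7 CPM in YC, 16.5 to 25.7 CPM in BIC and 13.2 to 41.9 CPM in pBIC, so both tumour groups were below YC. The log2 fold change was -1.72 ± 0.37 in BIC (edgeR adjusted p = 0.0153) and -1.03 ± 0.30 in pBIC (0.0275), with 0.68 ± 0.32 (0.151) between the models. Leaving out YC 2, YC 3, BIC 1 or BIC 2 ended its BIC call (edgeR adjusted p up to 0.0767), and leaving out any single YC library its pBIC call (up to 0.109). Lipa, the acid lipase that frees cholesterol from esters, was at 26.5 to 31.8 CPM in YC and 70.4 to 98.9 CPM in BIC (1.56 ± 0.25, edgeR adjusted p = 0.00475), and it fell in pBIC against BIC (-0.98 ± 0.21, 0.00782; 0.0541 without BIC 1). Npc2, which hands cholesterol on in the lysosome, rose in BIC (1.18 ± 0.31, edgeR adjusted p = 0.0360) and in pBIC (1.02 ± 0.28, 0.0210), against YC. Both calls were lost without any single YC library, and the BIC call without BIC 1 or BIC 2 (edgeR adjusted p up to 0.134 in BIC and 0.0824 in pBIC). With Xist as a covariate Npc2 was at 0.51 in BIC (0.416) and 0.62 in pBIC (0.118). Npc1, a lysosomal cholesterol transporter, was at 1.21 ± 0.34 in BIC against YC (edgeR adjusted p = 0.0481), which did not pass without any single YC or BIC library or pBIC 5 (up to 0.163). It was at -0.92 ± 0.28 in pBIC against BIC (0.0412), which did not pass without any single YC library, BIC 1, BIC 2, or pBIC 2, 3, 4 or 5 (up to 0.195); with Xist both passed, at 1.85 (0.0294) and -1.25 (0.0151). Npc1 and Lipa are also abundant in macrophages, whose summed markers were higher in BIC, although Adgre1 among them fell. The part of macrophages in this was not tested. Mylip, a ubiquitin ligase, fell in pBIC against YC (-1.85 ± 0.38, edgeR adjusted p = 0.00539) and against BIC (-1.45 ± 0.38, 0.0202), the latter lost without BIC 1 or BIC 2 (up to 0.124).

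Of 9 tested genes of 11 for efflux, esterification and the oxysterol receptors, 4 fell in pBIC against YC (Abca1, Apoe, Soat1 and Abcg4) and 0 rose, with a list median of -1.72, where 10.2% of all genes fell. At an unadjusted edgeR p under 0.05, and with DESeq2, 1 was higher. Soat1, which esterifies cholesterol for storage, was at 59.3, 69.8 and 60.3 CPM in YC and 61.5, 58.2 and 70.0 CPM in BIC. All 6 pBIC libraries were between 17.3 and 20.9 CPM, and it fell by 1.72 ± 0.12 on the log2 scale against each of the other groups (edgeR adjusted p = 2.05e-05 and 0.000163). Apoe, an apolipoprotein abundant in macrophages, fell in pBIC against YC (-2.34 ± 0.34, edgeR adjusted p = 0.000981) and BIC (-3.37 ± 0.35, 0.000583). Of the 12 macrophage markers, 11 had a positive log2 fold change in pBIC against YC, where 0 passed as higher and Adgre1 fell. Against BIC, 9 were negative and 3 positive. The part of macrophages in the fall of Apoe was not tested. Abca1, the cholesterol exporter, was at 119 to 135 CPM in YC and 5.38 to 37.2 CPM in pBIC (-2.76 ± 0.57, edgeR adjusted p = 0.00545). Nr1h2, an oxysterol receptor of the LXR type, was at -0.08 ± 0.32 (edgeR adjusted p = 0.901) in BIC and -0.19 ± 0.27 (0.649) in pBIC. Nr1h3, the other gene of this type, was at 2.44 ± 0.90 (edgeR adjusted p = 0.111) in BIC and 2.46 ± 0.84 (0.0543) in pBIC. Its levels were low, at 0.380 to 1.01 CPM in YC, 2.915 to 4.02 CPM in BIC and 0.193 to 7.14 CPM in pBIC. In BIC 1 of the 9 fell against YC (Abcg4) and 0 rose with edgeR, where 3 were higher at an unadjusted p under 0.05 and DESeq2 called 1 higher. Abcg4, a transporter at 1.60 to 2.96 CPM in YC and at most 0.972 CPM in the tumours, lost its pBIC call when YC 1 or YC 2 was dropped (adjusted p by edgeR as high as 0.115) and its BIC call without any single YC library, BIC 1 or BIC 2 (up to 0.0978).

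Fatty acid synthesis belongs to the other SREBP arm. Of its 13 genes tested, 3 rose in BIC against YC (Acacb, Scd2 and Elovl5), 4 in pBIC against YC (Acaca, Acacb, Scd2 and Me1), 2 in pBIC against BIC (Acaca and Fasn), and 0 fell with edgeR in any of the 3 comparisons. At an unadjusted p under 0.05, and with DESeq2, 1 was lower in BIC against YC and 0 in the others. Of all genes, 3.90%, 11.8% and 10.9% rose, so 2 of 13 in pBIC against BIC is near the share of all genes. Acacb, a mitochondrial acetyl-CoA carboxylase, was at 3.07 to 3.38 CPM in YC, 26.5 to 39.7 CPM in BIC and 15.4 to 81.0 CPM in pBIC. Its log2 fold change was 3.42 ± 0.60 in BIC (edgeR adjusted p = 0.00624) and 3.52 ± 0.57 in pBIC (0.00167). Scd2, a desaturase, rose by 1.74 ± 0.36 in BIC (edgeR adjusted p = 0.0136) and 1.40 ± 0.33 in pBIC (0.0102). The calls of Scd2 were lost without any single YC library or BIC 1 in BIC (edgeR adjusted p up to 0.0591), and without YC 1 in pBIC (0.0546). With Xist as a covariate Scd2 was at 0.90 in BIC (0.179) and 0.89 in pBIC (0.0437), and Acaca in pBIC against YC at 0.48 in place of 0.83 (0.0420). Elovl5 (0.75 ± 0.21, edgeR adjusted p = 0.0434) did not pass without any single YC or BIC library or pBIC 2 (up to 0.160). Fasn, the fatty acid synthase, was at 1.37 ± 0.39 (edgeR adjusted p = 0.0279) in pBIC against BIC, and neither Fasn nor Acaca passed there without any single BIC library (up to 0.117 and 0.0769). Acaca against YC was lost without YC 2 (0.0602). Me1 had no read in any YC library, and its call was lost without any single YC library, BIC 2, pBIC 5 or pBIC 6 (up to 0.123).

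Farnesyl diphosphate is also used outside sterol synthesis. Of 10 genes for prenyltransferases, dolichol and coenzyme Q, 5 rose in pBIC against YC (Rabggtb, Dhdds, Nus1, Pdss1 and Coq2) and 4 against BIC (the same without Coq2), and 0 fell with edgeR or DESeq2 (1 was lower in pBIC against YC at an unadjusted p under 0.05). Of all genes, 11.8% and 10.9% rose in these comparisons. In BIC against YC 0 passed with edgeR or DESeq2 and 1 was higher at an unadjusted p under 0.05: Coq2 at 0.48 ± 0.20 (edgeR adjusted p = 0.152) had the lowest p, followed by Pdss1 at -0.64 ± 0.36 (0.294). Pdss1, which builds the coenzyme Q tail, was at 7.48 to 11.2 CPM in YC, 4.795 to 7.92 CPM in BIC and 12.5 to 36.4 CPM in pBIC. It rose by 1.84 ± 0.34 against BIC (edgeR adjusted p = 0.00421). Against YC, Coq2, Pdss1 and Rabggtb lost their calls without any single YC library and Dhdds without YC 1 (edgeR adjusted p up to 0.102, 0.0991, 0.0681 and 0.0674), and with Xist as a covariate Coq2 was at 0.39 in place of 0.65 (0.109). Against BIC, Nus1 (adjusted p = 0.0393) did not pass without any single YC or BIC library or pBIC 2, 3, 5 or 6 (up to 0.164), Dhdds (0.0441) without YC 2, YC 3, any BIC library or any pBIC library but pBIC 3 (up to 0.187), and Rabggtb without BIC 1 (0.0632). Nus1, part of the dolichol synthase, rose by 1.01 ± 0.21 against YC (edgeR adjusted p = 0.00539).

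**Figure D5:**
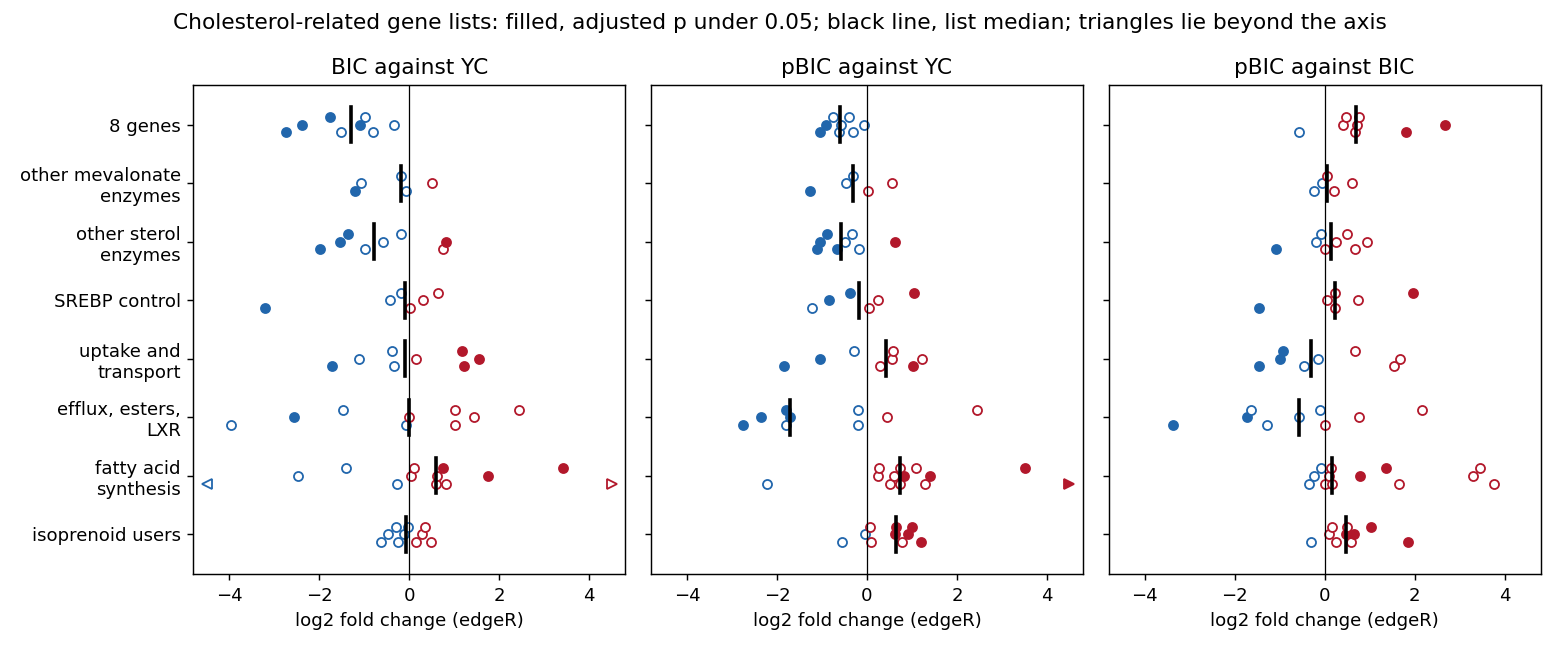
Log2 fold change (horizontal axes) of each tested gene in 8 lists for the 3 comparisons; each point is a gene, filled where the adjusted p was under 0.05, the black line is the list median, and triangles are values beyond the axis. In BIC against YC the 8 genes lie furthest left as a list, with a median of -1.30, and in pBIC against YC the efflux list does, with -1.72.

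Of the 8 genes, Idi1 and Fdps followed the mean of the other 7 most closely over the 12 libraries (Pearson 0.90 and 0.89), and Srebf2 least (0.28). Among 10091 other genes whose mean was 5 CPM or more, those most like the mean of the 8 were Dgkz, a diacylglycerol kinase (Pearson 0.942), Ccp110 (0.924), Phf6 (0.914) and Asf1b, a histone chaperone (0.905). Ptger4, Slbp, Rprd1b, Rfc3 and Nmral1 came next, the last at 0.894. The highest of the reported genes from the pathway lists were Stard4 at rank 18, Acat2 at 26, Hsd17b7 at 32, Insig1 at 47 and Srebf1 at 73. Other pathway genes ran the opposite way, down to Ebp at rank 9659 (Pearson -0.67), Lipa at 9979 (-0.79) and Elovl5 at 10019 (-0.82). The 12 libraries fall into 3 groups, so these values describe a pattern across groups and libraries together.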

How the data were processed

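Raw counts per gene were deposited for each library. Per the file headers, the authors counted with featureCounts 1.5.0 on GENCODE M13 exons, grouped by gene, with no option for read pairs, strand or multi-mapping reads, so mates count separately and reads on 2 genes or 2 places are not counted. The submitters' processing notes name STAR, FastQC, edgeR, limma and GRCm38, and the labels give reads of 100 bases.

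Gene names came from the GENCODE M21 table (50376 of 50686 IDs; the rest held at most 0.192% of counts). edgeR 4.0.16 in R 4.3.3 fitted all 12 libraries with 1 coefficient per group (TMM, filterByExpr with a minimum count of 10, robust quasi-likelihood F test). P-values were adjusted by Benjamini and Hochberg over 17754 genes and called under 0.05. The SE is the log2 fold change divided by the root of F. A floor of 3 counts is 0.0637 to 0.0906 CPM. Groups come from the titles. Members and lists were chosen with earlier results of these data known. Named are the 8 genes; Insig1, Scap and Nr1h2; up to 3 called genes of lowest p per list and comparison, or 2 uncalled; and genes most like the 8. Some genes of the lists are not reported here and are left out of list counts and plots. Genes behind a count of 5 or fewer at an edgeR adjusted p under 0.05 are also named, but not those behind counts at an unadjusted p or with DESeq2. These genes, Nr1h3 and the single cell type markers were chosen after their values were seen. The labels do not say whether the same replicate numbers pair libraries, and the main fit did not pair them. Alternatives were DESeq2 1.42.0 and its size factors, limma 3.58.1 (voom), no filter, the replicate block, an Xist covariate (log2 CPM), only 2 groups, and leaving out each library. The fit was tested on simulated data.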

Additional observations from a re-analysis of the deposited data

Results flagged for a closer look

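Of 40 genes examined, 3 had 1 pBIC library set apart in CPM. Its gap to the next, divided by the range of the 6, was above Dixon's 95% critical value. Normally distributed values pass it by chance in about 1 in 20 groups, so 3 of 40 is near that rate. CPM values need not be normal, and the ratio was not taken on the log2 scale. Sqle in pBIC 3 was at 165.3 CPM, with the next library at 50.1 CPM. Insig1 in pBIC 1 was at 149.1 CPM, with the next at 71.6 CPM. Mylip in pBIC 4 was at 51.3 CPM, with the next at 29.0 CPM.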

How the results depend on the processing

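Of 456 values of the 8 genes under alternatives, 399 kept direction and call, 37 lost the call, 13 gained it, 7 changed sign without a call and 0 changed sign with one. Of the 8 genes, 4 fell in BIC against YC: 2 passed with Xist as a covariate (Idi1 and Fdft1), 7 with only those 2 groups fitted, and 1 to 5 with 1 library left out. Sqle was lost there without the filter, and Cyp51 with the replicate block. In pBIC against YC, 2 fell: 1 passed without the filter, with Xist, with only 2 groups, and with the replicate block, and 1 to 2 with 1 library left out. In pBIC against BIC, 2 rose, 3 passed with Xist (Fdft1 in addition), and 1 to 3 passed with 1 library left out. Over all genes, 1576, 3914 and 3496 were called. DESeq2 called 3032 in BIC against YC, and only 2 groups gave 4602. Leaving out 1 library gave 563 to 1867, 1904 to 4376 and 1422 to 4134. The replicate block called 1725, 3144 and 2424. Same-numbered libraries of different groups correlated at -0.131 to 0.197 over 9 pairs, 3 of them over 0.1. Libraries with different numbers correlated at -0.310 to 0.269. With so few libraries these values cannot show whether the numbers pair them. The higher share of calls was 43.0% with voom against 53.7% in pBIC against YC, and 53.2% with Xist against 44.0% in BIC against YC. The cause of these changes was not tested. The 8 genes were above the floor of 3 counts in every library.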
